A study of Mus musculus with 28 samples.

Results

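Elavl1, Elavl2, Elavl3, Elavl4, Rbfox2, Rbfox3, Nova1, Nova2, Ptbp1 and Ptbp2 encode RNA-binding proteins that shape alternative splicing, and were followed here across cell types, genotypes and library types. They were chosen by name as ELAV-like, RBFOX, NOVA and PTB genes, and their Ensembl identifiers were matched to mouse symbols. All 10 were found among the 45513 genes listed in each count table. Ribosome footprints (mRNA pieces shielded by the ribosome during nuclease digestion) and fragmented poly(A)-selected total mRNA were sequenced, giving 28 libraries. MN1 cells, a mouse line made by fusing motor neurons with neuroblastoma cells, received a GFP, an hTDP-43 or an A315T mutant hTDP-43 construct by transfection, in 2 cultures per construct, and 100 µg/ml cycloheximide for 3 min before lysis. Primary cortical neurons were prepared at embryonic day 16 from C57BL/6J mice and kept for 14 days in vitro with cytosine arabinoside to limit dividing cells. They came from non-transgenic WT mice (2 cultures) or from hemizygous mice carrying human hTDP-43 (3 cultures) or hTDP-43 A315T (3 cultures) under the prion promoter, which is not restricted to neurons, and were lysed without cycloheximide beforehand. hTDP-43 is human TDP-43, an RNA-binding protein found in aggregates in amyotrophic lateral sclerosis, and A315T is a mutation of it found in patients. MN1 cells and neurons therefore differ in cell type, culture, cycloheximide, transfection and date, and these cannot be told apart in any comparison between them.

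Ptbp1 is the polypyrimidine tract binding protein of most dividing and non-neuronal cells. Ptbp2 is its neuronal paralogue. During neuronal differentiation the first gives way to the second, in part because PTBP1 protein promotes skipping of a Ptbp2 exon and thereby the decay of Ptbp2 mRNA. RBFOX proteins bind UGCAUG and NOVA proteins bind YCAY clusters, and both families set neuronal exons according to where they bind around them. The ELAV-like family comprises the ubiquitous Elavl1 (HuR), an mRNA-stabilising protein, and the neuronal Elavl2 (HuB), Elavl3 (HuC) and Elavl4 (HuD). Rbfox3 encodes the antigen NeuN, a standard marker of mature neurons, whereas Rbfox2 is used by many cell types.

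Because paralogues resemble each other, the coding sequences were compared first, to see whether reads of footprint length could be assigned to the wrong member. The closest stretches are shown for the pair with the longest shared run, for Elavl2 and Elavl4, and for the pair of PTB genes on which the results turn most. Capitals mark the longest run of identical bases between the coding sequences of a pair, 29 bases for Elavl3 and Elavl4, 23 bases for Elavl2 and Elavl4 and 14 bases for Ptbp1 and Ptbp2. All 6 windows of 30 bases lie within single coding exons of GENCODE M21 transcripts (GRCm38).
Elavl3, chr9:22018599-22018628, minus strand: TTCGGCTTCGTCACCATGACCAACTACGAc
Elavl4, chr4:110206428-110206457, minus strand: TTCGGCTTCGTCACCATGACCAACTACGAt
Elavl2, chr4:91264050-91264079, minus strand: aaaACCATGACCCAGAAGGAGCTGGAacag
Elavl4, chr4:110213186-110213215, minus strand: aagACCATGACCCAGAAGGAGCTGGAgcag
Ptbp1, chr10:79859854-79859883, plus strand: atgtcaagTACAACAATGATAAgagcagag
Ptbp2, chr3:119740408-119740437, minus strand: atgtaaaaTACAACAATGATAAaagtaggg
Of the coding words of 28 bases, 2 of 1128 in Elavl4 were also present in Elavl3, and no word of a Ptbp, Nova or Rbfox member occurred in another of the 10 genes. A read of footprint length could thus rarely have been taken from one member for another. Ptbp1 stood apart in another way, since 44.2% of its 1638 coding words were present in transcripts of other genes. The processed pseudogene Gm4900 on chromosome 13 held 624 of these words, the pseudogene Gm18815 on chromosome 15 held 49, and the antisense neighbour Plppr3, whose span overlaps Ptbp1, held 130. Reads that align equally well to a pseudogene were not counted by the authors, nor were reads that overlap more than 1 listed gene, so the Ptbp1 counts understate its level in all libraries. Only coding words were compared. Footprints come from translated regions and total mRNA also covers UTRs, so a larger part of the Ptbp1 reads may be missing in footprints. The size of this loss was not tested. Elavl3 shared 229 of 1074 coding words with Gm49318, an overlapping gene of the newer annotation that is not listed in the count tables.

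Reads assigned to genes ranged from 332370 to 1219222 in MN1 footprint libraries, from 1328528 to 2988339 in MN1 total mRNA, from 166064 to 2528820 in neuron footprints and from 600385 to 6969578 in neuron total mRNA. The shallowest neuron libraries were cultures 2 and 3 with hTDP-43, in which 3 footprint reads stood for 15.624 and 18.065 CPM (read counts scaled to a common library total, as counts-per-million). Among neuron total mRNA libraries, WT culture 3 and hTDP-43 culture 3 stood apart, with 18.8% and 14.1% of reads on Lars2 against 3.09 to 7.49% in the other 6. The neuron label was checked against markers. All 7 neuronal marker genes were detected in neuron libraries, with a summed level of 4940 to 5580 CPM in total mRNA against 545 to 744 CPM in MN1. All 6 astrocyte markers were also detected in neuron cultures, at 238 to 606 CPM in sum, whereas none reached 10 reads over the MN1 libraries. The 5 microglial markers summed to at most 3.69 CPM in neuron total mRNA, and 5 markers of cycling cells to 3.98 to 13.5 CPM, compared with 466 to 699 CPM in MN1. In MN1 cells all 7 motor neuron markers reached 10 reads over the total mRNA libraries, with a sum of 52.8 to 79.8 CPM, and 4 did so in footprints. Most of the sum was Isl1 (26.68 to 39.02 CPM) and Slc18a3 (15.4 to 32.09 CPM). Chat, Mnx1, Slc5a7 and Lhx3 had medians of only 1.02, 1.10, 1.19 and 1.97 CPM. In neuron total mRNA 4 of the 7 also reached 10 reads, with a sum of 5.4 to 12.5 CPM. In such bulk samples, fewer cells of a type and less RNA per cell cannot be told apart.

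The first question was which of the 10 regulators each cell type used. The mRNA of 7 members was higher in neurons than in MN1 cells, that of Elavl1 and Ptbp1 was lower, and only Nova1 did not pass the test (edgeR's quasi-likelihood test, 6 MN1 against 8 neuron libraries, adjusted p below 0.05 over all 12801 genes tested). This has to be read against all genes, of which 42.6% were called higher and 38.4% lower in neurons. In footprints, 6 members were called higher and the same pair lower, beside 42.7% and 39.9% of 10698 genes. Rbfox3 is among the members called higher in both library types. It had enough reads to be tested only in neuron libraries, so its call was close to settled beforehand. The median log2 difference of the members was 1.86 in total mRNA and 1.71 in footprints, whereas that of all genes tested was 0.09 and 0.05. Over all genes, the median size of the difference, whichever its sign, was 1.394 in total mRNA and 1.399 in footprints. Rises and falls nearly balance over all genes, so their signed median does not show how far a typical gene differed. CPM values below are scaled over the 14 libraries of a library type by the trimmed mean of M-values (TMM). Ranges that do not overlap are given below as description only. The share of all genes without overlap was not determined, and with most genes called it may be large.

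**Figure D1:**
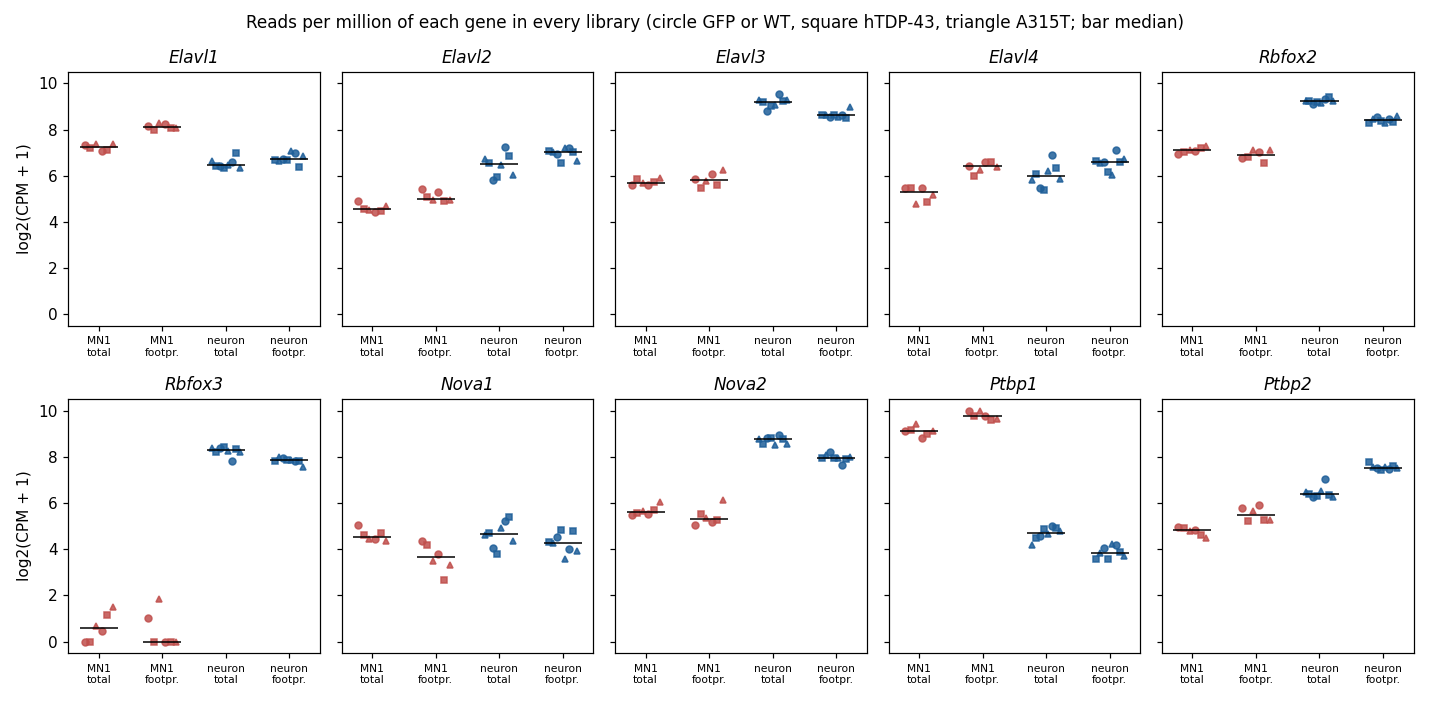
Level of each gene in every library, as log2(CPM + 1) on the vertical axis, for MN1 (red) and neuron (blue) libraries of total mRNA and footprints. Circles stand for GFP or WT, squares for hTDP-43, triangles for hTDP-43 A315T, and bars for medians. Ptbp1 and Rbfox3 show the widest separation between the cell types, in opposite directions, and Nova1 and Elavl4 overlap between them in both library types.

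The PTB pair changed places between the cell types. Ptbp1 mRNA lay between 446.4 and 681.9 CPM in the 6 MN1 libraries (median 550.1) and between 17.2 and 31.38 CPM in the 8 neuron libraries (median 25.41). The lowest MN1 library was thus far above the highest neuron library. The log2 difference was −4.47 ± 0.16 (SE; adjusted p = 3.79e-12), or 22.1-fold lower in neurons. Ptbp1 footprints went from 767.4 to 1022 CPM in MN1 (median 862.8) to 10.8 to 17.69 CPM in neurons (median 13.4). Again the groups did not overlap, and the difference was larger than in mRNA, at −6.03 ± 0.14 (adjusted p = 1.57e-18). The neuron footprint values rested on 2 to 31 reads per library, so the level in a single neuron library was poorly determined. Ptbp2 moved the other way. Its mRNA rose from 21.55 to 30.25 CPM in MN1 (median 27.16) to 75.63 to 130.6 CPM in neurons (median 82.36), with a log2 difference of 1.75 ± 0.15 (adjusted p = 4.35e-08). Its footprints rose from 36.74 to 58.76 CPM (median 43.46) to 173.7 to 217.3 CPM (median 183.8), with a log2 difference of 2.05 ± 0.12 (adjusted p = 3.62e-13). No Ptbp2 value of an MN1 library reached the lowest neuron library in either library type.

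Expressed per exon length within each library, which makes the pair independent of scaling between libraries, Ptbp2 took 1.97 to 3.07% of the summed Ptbp1 and Ptbp2 reads in MN1 total mRNA (median 2.48%) and 58.5 to 72.4% in neuron total mRNA (median 64.7%). In footprints the share was 2.16 to 3.39% in MN1 (median 2.45%) and 84.1 to 91.2% in neurons (median 88.0%). The footprint share exceeded the mRNA share in 8 of 8 neuron cultures, by 15.4 to 30.7 percentage points, whereas in MN1 it did so in 4 of 6 cultures and moved by at most 0.437 points upward and 0.415 points downward. Some Ptbp1 coding reads were not counted, and exon length includes UTRs while footprints come from translated regions. Shares in footprints and in mRNA are therefore not on one scale, here and for the families below. The part of either was not tested. Astrocytes express Ptbp1, and astrocyte markers were present in the neuron cultures at the levels given above. Their part in the remaining Ptbp1 reads was not tested.

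**Figure D2:**
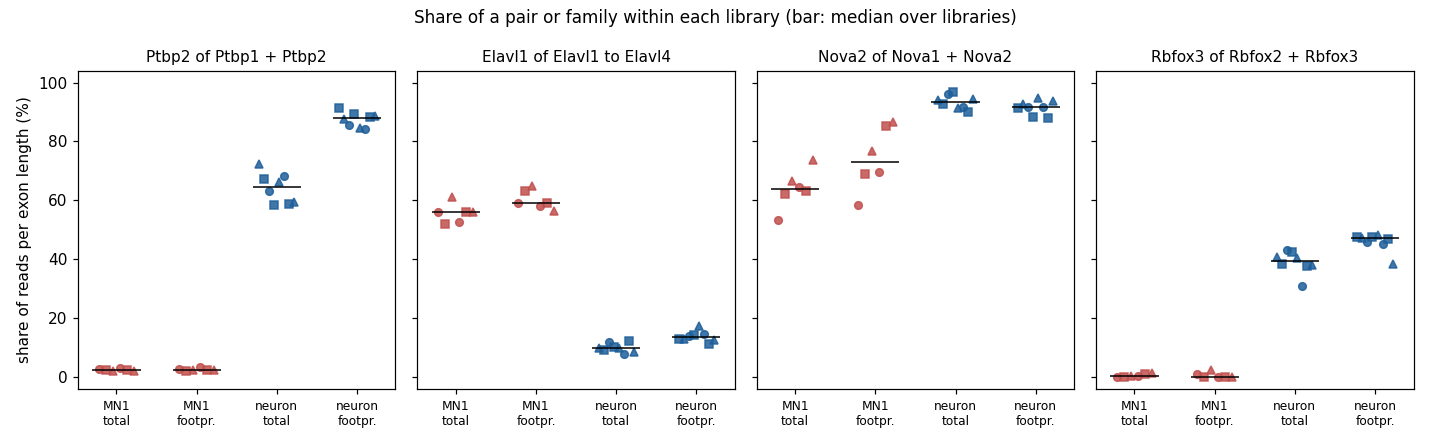
Share, in percent of reads per exon length, of Ptbp2 in the PTB pair, Elavl1 in the ELAV-like family, Nova2 in the NOVA pair and Rbfox3 in the RBFOX pair, with 1 point per library and bars at the median. The Ptbp2 share is near 2.48% in MN1 total mRNA, near 64.7% in neuron total mRNA and near 88.0% in neuron footprints, and the Rbfox3 share is close to 0 in MN1. Exon length includes UTRs, so shares in footprints and in mRNA are not on one scale.

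Within the ELAV-like family, the ubiquitous and the neuronal members went in opposite directions. Elavl1 mRNA was 133.8 to 164.9 CPM in MN1 (median 152.8) and 79.68 to 126.1 CPM in neurons (median 86.58). The highest neuron library, hTDP-43 culture 3, had 56 Elavl1 reads in all and came close to the lowest MN1 library. The log2 difference was −0.72 ± 0.12 (adjusted p = 6.57e-05), and it did not pass the test when the GFP and WT libraries alone were compared (−0.61, adjusted p = 0.135). Elavl1 footprints fell further, from 251.5 to 312.3 CPM in MN1 to 80.97 to 132.7 CPM in neurons (log2 difference −1.37 ± 0.11, adjusted p = 1.12e-10). Elavl3 rose most of the family. Its mRNA went from 47.04 to 58.68 CPM in MN1 (median 51.18) to 448.1 to 741 CPM in neurons (median 588.2), 11.2-fold higher (log2 difference 3.49 ± 0.15, adjusted p = 1.99e-11). Elavl3 footprints were 43.8 to 74.23 CPM in MN1 and 364.3 to 500.5 CPM in neurons (log2 difference 2.83 ± 0.13, adjusted p = 7.92e-15). Elavl2 was nearly 4-fold higher in neurons, with 20.79 to 29.15 CPM in MN1 and 56.01 to 150.9 CPM in neuron total mRNA (log2 difference 1.97 ± 0.24, adjusted p = 1.95e-06). In footprints the corresponding ranges of Elavl2 were 29.41 to 42.39 and 92.26 to 147.5 CPM (log2 difference 1.91 ± 0.14, adjusted p = 3.63e-11). The ranges of Elavl1, Elavl2 and Elavl3 did not overlap between the cell types in either library type, which was not counted over all genes.

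Elavl4 differed least among the neuronal ELAV-like genes. Its mRNA was 26.07 to 43.46 CPM in MN1 and 40.14 to 117.7 CPM in neurons, with overlapping ranges and a log2 difference of 0.89 ± 0.23 (adjusted p = 0.00219; 0.98 and 0.135 with GFP and WT libraries alone). Its footprints ranged from 62.17 to 96.26 CPM in MN1 and from 64.14 to 136.2 CPM in neurons, and the log2 difference of 0.26 ± 0.14 did not pass the test (adjusted p = 0.0872). With the replicate number as a block it did (0.25, adjusted p = 0.0336), as it also did in 7 of the 14 fits that left out 1 culture each (adjusted p of 0.0321 to 0.349 over the 14). Per exon length, Elavl1 made up 51.9 to 61.0% of the family's reads in MN1 total mRNA and 7.86 to 12.4% in neurons, while the Elavl3 share rose from 19.7 to 25.2% to 70.6 to 79.5%. The Elavl3 share was lower in footprints than in mRNA in 6 of 6 MN1 and 8 of 8 neuron cultures, with medians of 13.7% and 60.9% in footprints.

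Rbfox3 was the member closest to absence in MN1 cells. Its total mRNA counts there in the 2 cultures per construct were 0 and 1 (GFP), 0 and 2 (hTDP-43) and 2 and 4 (hTDP-43 A315T), or 9 reads in all, and the footprint libraries held 4 reads in all, 3 of them in 1 library. In neurons it reached 223.8 to 338.5 CPM in total mRNA (median 315.8) and 187 to 249.9 CPM in footprints (median 228.5). The pooled CPM was 353-fold higher in neurons for mRNA (95% exact interval 186 to 773, from 7199 against 9 reads) and 242-fold higher for footprints (94.4 to 890, from 1869 against 4 reads). These intervals, and those of pooled folds below, cover counting error only. Leaving out hTDP-43 A315T culture 2 of MN1 raised the mRNA value to 532-fold (228 to 1640), and leaving out A315T culture 1, with 3 of the 4 footprint reads, raised the footprint value to 706-fold (127 to 27900, from 1 MN1 read). The difference passed the test in both library types (adjusted p = 2.32e-12 and 1.36e-16), but the fitted fold change depends on the prior count and is not given. Rbfox3 had enough reads to be tested only in neuron libraries. Passing was thus close to settled beforehand and adds no support to the read counts. Rbfox2 was well expressed in both cell types. Its mRNA rose from 122.1 to 157.3 CPM in MN1 (median 136.4) to 558.1 to 675.5 CPM in neurons (median 600.5), 4.37-fold (log2 difference 2.13 ± 0.11, adjusted p = 1.82e-10). Rbfox2 footprints rose less, from 93.58 to 139.6 CPM to 309.6 to 380.5 CPM (log2 difference 1.52 ± 0.11, adjusted p = 1.74e-11). The ranges did not overlap in either library type. Rbfox3 thus made up 31.0 to 43.2% of the RBFOX pair in neuron total mRNA and 38.3 to 48.4% in footprints, per exon length, against at most 1.45 and 2.3% in MN1. The paralogue Rbfox1 is not a member and is left out of this share. Its median in neurons was 142.4 CPM in total mRNA and 202.5 CPM in footprints.

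The NOVA genes split as well. Nova2, the main cortical member, rose from 43.46 to 64.64 CPM in MN1 (median 48.2) to 359.9 to 485.9 CPM in neuron total mRNA (median 435.9), 8.54-fold (log2 difference 3.09 ± 0.12, adjusted p = 1.11e-11). Its footprints rose from 32.3 to 68.93 CPM to 200.5 to 291.7 CPM (log2 difference 2.57 ± 0.14, adjusted p = 1.72e-13), with no overlap in either library type. Nova1 mRNA was 19.26 to 31.91 CPM in MN1 and 13.02 to 40.53 CPM in neurons, so the neuron range enclosed that of MN1 (log2 difference 0.07 ± 0.24, adjusted p = 0.797). The sign of this small difference turned without GFP culture 2 or without WT culture 3. Nova1 footprints ranged from 5.35 to 19.18 CPM in MN1 and from 11.06 to 27.14 CPM in neurons (0.56 ± 0.26, adjusted p = 0.0529; 0.63 and 0.0283 with the replicate block, and passing in 10 of 14 fits that left out 1 culture each). Nova2 held 53.2 to 73.7% of the NOVA pair in MN1 total mRNA and 90.0 to 96.7% in neurons.

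**Figure D3:**
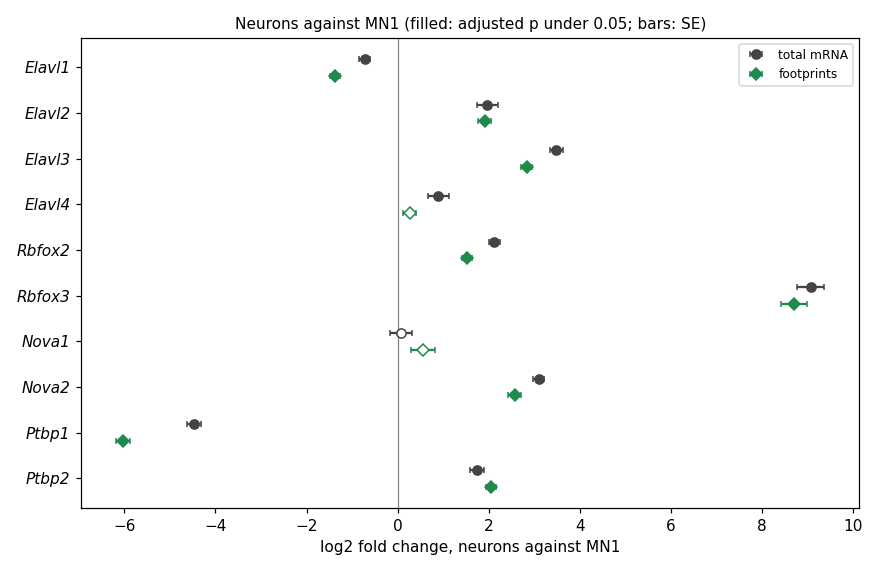
Log2 fold change of neurons against MN1 (horizontal axis) for each gene in total mRNA (circles) and footprints (diamonds), with bars for the SE and filled symbols for an adjusted p below 0.05. Ptbp1 lies at −4.47 in mRNA and −6.03 in footprints. The positions of Rbfox3 depend on the prior count because MN1 libraries hold few or no reads.

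Across genes, levels were compared only as RPKM, the same CPM divided by the exon length in kilobases. In MN1 total mRNA the order by median was Ptbp1 (116), Elavl1 (25.3), Rbfox2 (18.6), Elavl3 (10.2), Elavl4 (7.23), Nova2 (5.76), Nova1 (3.18), Ptbp2 (2.96), Elavl2 (2.70) and Rbfox3 (0.0834). Elavl4 and Nova2 could not be ordered, since Elavl4 was higher in only 3 of 6 libraries, and the ranges of Nova1, Ptbp2 and Elavl2 overlapped each neighbour in turn. In neuron total mRNA the order was Elavl3 (117), Rbfox2 (81.6), Rbfox3 (54.3), Nova2 (52.1), Elavl1 (14.4), Elavl4 (11.5), Elavl2 (10.8), Ptbp2 (8.98), Ptbp1 (5.36) and Nova1 (3.47). The 4 highest genes lay above all others in every neuron library. From Elavl1 down to Ptbp2 the ranges of neighbours overlapped, as they did for Ptbp1 and Nova1, although Ptbp1 was the higher of the 2 in 8 of 8 libraries. In footprints, Ptbp1 again led in MN1 (182) and Elavl3 in neurons (78.1). Ptbp2 moved from the eighth place in neuron mRNA to the fifth in neuron footprints (20.0), and Ptbp1 and Nova1 were at the end of that order (2.83 and 2.64), with Ptbp1 higher in 5 of 8 libraries. Exon length includes UTRs, whereas footprints come from translated regions. The longest coding sequences of Ptbp2 and Ptbp1 had 1596 and 1665 bases, against exon lengths of 9175 and 4740 bases. The order of genes in footprints thus also depends on UTR length.

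A second question was how the footprints of each gene compared with its mRNA within a cell type. The log2 ratio is relative to all genes of the cell type, whose median was −0.05 in MN1 and 0.00 in neurons. Poly(A) selection was applied to total mRNA only, and footprints come from translated regions while total mRNA also covers UTRs, so a ratio is not a rate of translation. In MN1, 5 members were called higher in footprints and Nova1 lower, of 9 tested, beside 27.2% and 30.2% of 10212 genes. Elavl4 (1.24 ± 0.15, adjusted p = 8.76e-06), Elavl1 (0.96 ± 0.09, 6.75e-07), Ptbp2 (0.84 ± 0.14, 0.000141), Ptbp1 (0.77 ± 0.10, 1.38e-05) and Elavl2 (0.59 ± 0.15, 0.00473) were the members above 0. Nova1 was at −0.83 ± 0.23 (adjusted p = 0.00741), on 2 to 19 reads per footprint library, and went from −1.25 to −0.67 with 1 culture left out. Elavl3, Rbfox2 and Nova2 lay between −0.18 and 0.17 and were not called, and Rbfox3 had too few reads for the test. These calls held without any of the 6 cultures in turn.

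In neurons, 4 members were called higher in footprints and 5 lower, beside 26.6% and 27.3% of 11654 genes. Ptbp2 had the highest ratio (1.15 ± 0.12, adjusted p = 3.69e-07). Ptbp1 had the lowest (−0.79 ± 0.19, adjusted p = 0.00177), followed by Rbfox2 (−0.74 ± 0.09, 4.89e-06), Nova2 (−0.70 ± 0.11, 2.92e-05) and Elavl3 (−0.47 ± 0.12, 0.00278). The calls of these 5 genes held without any of the 8 cultures in turn. The Ptbp1 ratio also carries the coding reads that were not counted, so its place among the members and its sign are not settled. Elavl4 (0.62 ± 0.20, adjusted p = 0.0144), Elavl2 (0.54 ± 0.20, 0.0257), Elavl1 (0.33 ± 0.13, 0.0354) and Rbfox3 (−0.32 ± 0.11, 0.0203) also passed, but their calls were lost in 3, 5, 6 and 2 of those 8 fits. Nova1 was at −0.32 ± 0.25 and was not called (adjusted p = 0.284).

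**Figure D4:**
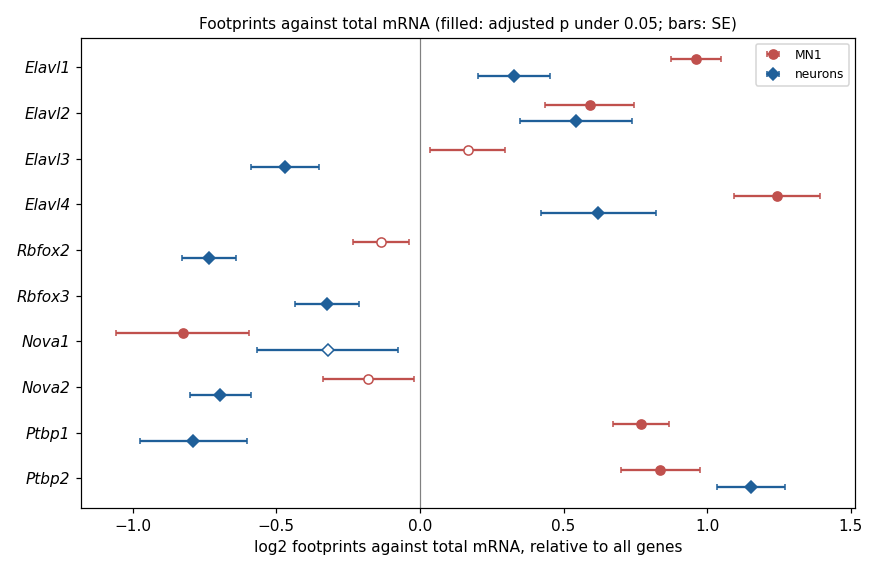
Log2 of footprints against total mRNA (horizontal axis), relative to all genes, in MN1 (circles) and neurons (diamonds), with bars for the SE and filled symbols for an adjusted p below 0.05. Rbfox3 was not tested in MN1. Ptbp1 lies at 0.77 in MN1 and −0.79 in neurons, on opposite sides of 0, and Ptbp2 lies above 0 in both. Ptbp1 coding reads that were not counted may lower both of its values.

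The difference of this ratio between the cell types was then tested directly, in a fit over all 28 libraries. The median over all 12358 genes was 0.20, and calls are given beside it: 5.94% of genes were called higher in neurons and 2.13% lower, and 0 and 3 members. With size factors by relative log expression (RLE) in place of TMM the median of all genes was −0.02, and the share of higher genes among all calls turned from 73.6% to 31.0%. Relative to the median of all genes, members moved little between these scalings. Ptbp1 was at −1.44 ± 0.21 (adjusted p = 0.000113), or −1.64 relative to the median, and was called in every fit made, with adjusted p of 0.000106 to 0.000846 without each culture in turn. Elavl1 (−0.53 ± 0.16, adjusted p = 0.0445) and Rbfox2 (−0.50 ± 0.15, 0.0331) passed narrowly, at −0.73 and −0.70 relative to the median, and lost the call without 10 and 8 of the 14 cultures. Elavl1 was at an adjusted p of 0.0523 with the culture as a block. Elavl3 (−0.55, adjusted p = 0.0646) and Nova2 (−0.42, 0.172) passed only with RLE scaling (0.0165 and 0.0495) or DESeq2 (0.00799 and 0.041), apart from Elavl3 without WT culture 2 (0.0177). Ptbp2 was at 0.41 ± 0.19 and was not called (adjusted p = 0.185), except without WT culture 3 (0.56, adjusted p = 0.0454). Elavl4 was at −0.52 (adjusted p = 0.271), Nova1 at 0.61 (0.343) and Elavl2 at 0.05 (not called), and the sign of Elavl2 changed between fits. Rbfox3 was at 0.17, but its MN1 ratio rested on 9 total mRNA reads and 4 footprint reads in all. Its value also changed sign between fits and cannot be read.

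The next comparisons asked whether human TDP-43, wild-type or A315T, changed the 10 genes within a cell type. No member passed the test in any of the 12 comparisons of footprints or total mRNA, in the 6 comparisons of footprints relative to mRNA, or in the 2 tests of whether the A315T difference from the control varied between cell types (edgeR; 0 also with DESeq2 and with the replicate block). Of the 188 member tests, 1 had an unadjusted p below 0.05. It was Elavl4 in MN1 total mRNA, hTDP-43 A315T against GFP (−0.59 ± 0.22, adjusted p = 0.849), where the GFP cultures had 43.46 and 43.03 CPM and the A315T cultures 26.07 and 34.84 CPM. Few genes of any kind were called in these comparisons: for A315T against GFP, 0.0115% of genes in MN1 footprints and 0.00965% in total mRNA of these cells, for hTDP-43 against GFP 0.01% in their total mRNA, and 0% in each of the other 17. Over the 20 comparisons the number of genes with an unadjusted p below 0.05 was 44 to 548, DESeq2 called 0 to 11 genes, and edgeR with the replicate block called 0 to 283. Over the 12 comparisons of footprints or total mRNA the members' log2 differences lay between −0.73 and 0.61, with a median size of 0.13. Both ends came from MN1 footprints, A315T against GFP, namely Nova1 (−0.73) and Nova2 (0.61). Standard errors of members ran from 0.14 to 0.54 over these 12 comparisons. They reached 0.54 in MN1 footprints (hTDP-43 against GFP) and 0.48 in neuron total mRNA (hTDP-43 against WT), so the absence of calls does not show that the members were unchanged.

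**Figure D5:**
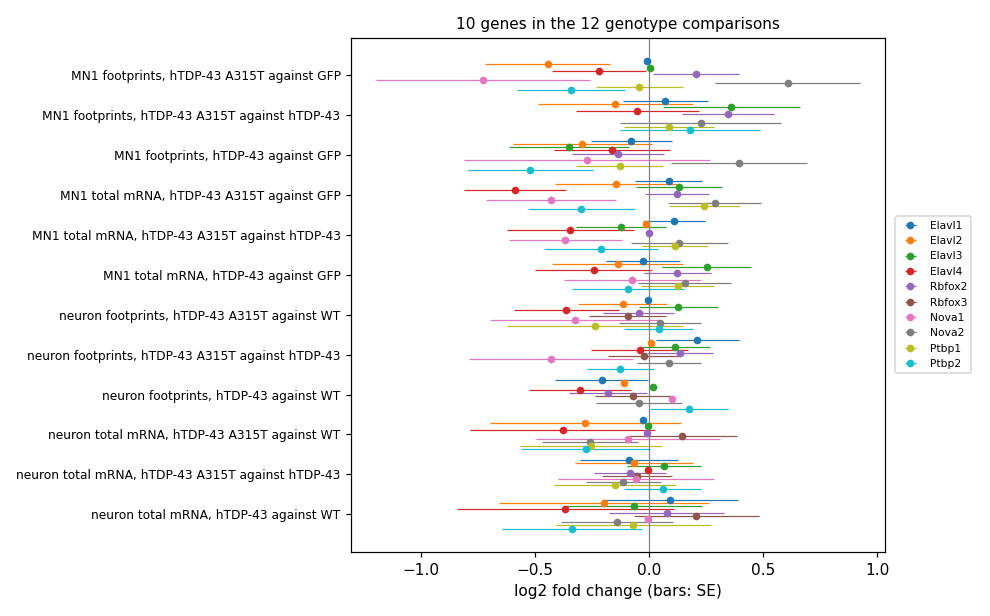
Log2 fold change (horizontal axis) of the 10 genes, by colour, in the 12 comparisons between genotypes, with bars for the SE. All points lie between −0.73 and 0.61, and none passed the test.

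The values by culture show how the neuron groups overlapped. Ptbp1 mRNA was 22.75 and 31.38 CPM in the WT cultures, 21.03, 28.21 and 29.27 CPM with hTDP-43, and 17.2, 23.96 and 26.86 CPM with hTDP-43 A315T. Ptbp2 mRNA was 75.63 and 130.6 CPM in WT, 83.66, 77.03 and 81.06 CPM with hTDP-43, and 87.51, 90.53 and 76.73 CPM with A315T. The 2 WT cultures enclosed all others for Ptbp2, and WT culture 3 was the high one. This library was also the highest of the 8 in Elavl2 (150.9 CPM, against 56.01 in WT culture 2), Elavl3 (741 against 448.1), Elavl4 (117.7 against 42.93) and Nova2 (485.9 against 452.4), and the lowest in Rbfox3 (223.8 against 335.8). It is the library with the largest Lars2 share, and whether that goes with the difference was not tested. In footprints WT culture 3 was again the highest library for Elavl2 (147.5 CPM) and Elavl4 (136.2 CPM), but it was the lowest for Nova2 (200.5 CPM), and Ptbp2 stood at 182.2 and 174 CPM in the WT cultures. Elavl4 mRNA in A315T against WT neurons depended on which WT culture was used. It was −0.38 with both, −0.92 without WT culture 2 (adjusted p = 0.0328, with 12.5% of all genes called in that fit) and 0.51 without WT culture 3 (adjusted p = 1).

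Other regulators of alternative splicing were examined as a list of 28 genes, which holds none of the 10. Of 25 tested in total mRNA, 14 were called higher in neurons and 8 lower, beside 42.6% and 38.4% of all genes, with a median log2 difference of 0.71 (0.09 over all genes). In footprints, 9 of 24 were called higher and 10 lower, beside 42.7% and 39.9% of all genes, and the median had the opposite sign, at −0.13 (0.05 over all genes). The largest rises were in genes with few reads in MN1. Khdrbs3, Celf2 and Rbfox1 could not have entered the test from their MN1 libraries alone, so their calls were close to settled beforehand. Khdrbs3 (SLM2), a STAR-family regulator of neurexin splicing, had 3962 reads in neurons and 9 in MN1, 194-fold more in pooled CPM (95% exact interval 102 to 426). Celf2 was 421-fold higher (266 to 710), Celf5 103-fold (77.2 to 141) and Rbfox1, a paralogue of Rbfox2 and Rbfox3, 61.1-fold (41.3 to 94.6). The hTDP-43 A315T culture 2 of MN1 held 5 of the 9 Khdrbs3 reads and 9 of the 18 Celf2 reads, and without it these folds were 366 (143 to 1350) and 704 (371 to 1540). The largest falls were Rbm38, a p53-induced RNA-binding protein (−5.53 ± 0.23, adjusted p = 1.76e-11), Ptbp3, the third PTB paralogue (−1.92 ± 0.24, 2.81e-06), Hnrnpll (−1.36 ± 0.13, 2.32e-07) and Msi1, a protein of neural progenitors (−0.87 ± 0.11, 3.57e-06). Ptbp3 thus fell together with Ptbp1 in neurons, and its footprints did so as well (−2.79 ± 0.19, adjusted p = 7.09e-12). Msi1 was like Ptbp1 in that its footprints fell further than its mRNA. Its ratio of footprints to mRNA was lower in neurons by −1.62 ± 0.20 (adjusted p = 9.74e-06), and of 25 genes of the list this ratio was called higher for 1 and lower for 4, beside 5.94% and 2.13% of all genes, a split that turned with the scaling as given above.

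From a second list, 5 mRNAs described as targets of these families are given. Dlg4, Vamp2, Sv2a and Kif5a are limited by PTBP1 in non-neuronal cells, and Gap43 is bound by neuronal ELAV proteins. All 5 were called higher in neurons in both library types, beside 42.6% of all genes in total mRNA and 42.7% in footprints. Whether PTBP1 or the ELAV proteins had a part in this was not tested. Dlg4 (PSD-95), a scaffold of excitatory synapses, had a log2 difference of 4.18 ± 0.20 in total mRNA. Vamp2 was at 4.77 ± 0.17, Sv2a at 6.01 ± 0.17, Kif5a at 4.51 ± 0.17 and Gap43 at 4.18 ± 0.17. Over all genes the median was 0.09, and the median size of the difference, whichever its sign, was 1.39. No genotype comparison called any of the 5. In neuron footprints relative to mRNA, Gap43 (0.87 ± 0.13, adjusted p = 1.87e-05) and Sv2a (0.27 ± 0.09, 0.0171) were higher, Dlg4 (−1.43 ± 0.16, 1.12e-06) and Kif5a (−0.54 ± 0.12, 0.00104) were lower, and Vamp2 was not called. Gene counts do not show exon inclusion, so the splicing of these transcripts was not measured.

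Finally, the genes with the most similar profile to each member were found by Pearson's r of log2 CPM over all 28 libraries among 12358 genes. These libraries form clusters by cell and library type, so r describes mainly that separation. For Ptbp1 these were the mitotic genes Ccna2 (r = 0.993) and Dlgap5 (0.992), and for Elavl1 the histone genes Hist1h3g (0.957) and Hist1h1b (0.947). Rbfox3 went with Adgra1 (0.996) and Khdrbs3 (0.996), Rbfox2 with Snhg11 (0.990) and St8sia1 (0.988), and Nova2 with Fam168a (0.990) and Ppfia3 (0.989). Elavl3 was nearest to Caln1 (0.994) and Mark1 (0.993), Elavl2 to Atp2b1 (0.976) and Dzip3 (0.973), and Ptbp2 to Pja2 (0.987) and Pls3 (0.985). Elavl4 with Tex52 (0.889) and Rny1 (0.886) and Nova1 with Bptf (0.821) and Vkorc1l1 (0.797) had no close match. Among the members, r between Ptbp1 and Ptbp2 was −0.896, and that between Elavl3 and Nova2 was 0.983.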

How the data were processed

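The authors clipped adapters with cutadapt 1.8.1, removed reads aligned to non-coding RNAs with Bowtie2, aligned the rest to GRCm38 with TopHat2 and counted uniquely aligned reads on exons with featureCounts 1.4.4 (Ensembl release 80), without strand. The deposited values are raw counts per gene. Differences were tested with edgeR 4.0.16 (R 4.3.3; quasi-likelihood test, TMM, minimum count 10, minimum total count 15), over all genes, with Benjamini-Hochberg adjustment at 0.05. DESeq2 1.42.0, RLE scaling, no filter, the replicate block and leaving out cultures were alternatives, and pooled folds without each library were added after seeing the data. The fits were tested on simulated data. Standard errors (SE) were taken as the absolute log2 fold change over the root of F. P-values of the main fits measure the spread between libraries within a group. Libraries of the same date entered as independent, as did the footprint and mRNA libraries of a culture in the ratio tests. Cultures of different genotypes share dates, so independent dates are fewer than cultures. Only the replicate block takes up this pairing. Replicate numbers pair cultures, since the labels give libraries of the same number within a cell type the same date, apart from the year of 1 GFP footprint library. After subtracting group means, libraries that share a number had an average r over genes of 0.442 and 0.336 in MN1 total mRNA and footprints and of 0.171 and 0.12 in neurons, where single pairs went down to −0.175.

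The members and lists were chosen with earlier results of these data known. Every member is named between cell and library types. Between genotypes only members past the threshold were to be named, and none passed, so the single values given there were chosen after they were seen. Of the other regulators, the 4 largest called rises and falls are named, and for each member the 2 genes with the highest r (prior count 2). Of the list of target mRNAs, all are named except some that are not reported here. Exon lengths are those of the deposited tables and include UTRs. Windows of shared sequence were read from GENCODE M21 transcripts on the same build, after the values were known. Symbols were matched for 44585 of 45513 genes. Human transgene reads were not analysed here, so the genotype labels were not checked against them. Protein sequences were not used here. Markers of excitatory (1020 to 1470 CPM in sum), GABAergic (562 to 1120), oligodendrocyte-lineage (56.8 to 119) and endothelial cells (0 to 2.76) were also summed in neuron total mRNA. In MN1 total mRNA these sums were 15.6 to 23.8, 0 to 1.46, 6.67 to 10.5 and 5.68 to 12.4 CPM.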

Additional observations from a re-analysis of the deposited data

Results flagged for a closer look

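The level of each member was examined for single libraries far from the rest of their cell type and library type (Dixon's test, 40 groups of 6 or 8 libraries, of which chance marks about 1 in 20). In neuron total mRNA this marked Elavl1 in hTDP-43 culture 3 (126.1 CPM, next 100 CPM, 56 reads), Ptbp2 in WT culture 3 (130.6 CPM, next 90.53 CPM) and Rbfox3 in WT culture 3 (223.8 CPM, next 294.5 CPM). These are the 2 libraries with the largest Lars2 shares. In neuron footprints, hTDP-43 A315T culture 3 was marked both for a high Elavl3 (500.5 CPM, next 399.1 CPM) and for a low Rbfox3 (187 CPM, next 222.7 CPM), with 463 and 173 reads. In MN1 cells, hTDP-43 A315T culture 2 was marked for a high Nova2 in both library types, at 64.64 CPM in total mRNA (141 reads, next 51.13 CPM) and 68.93 CPM in footprints (39 reads, next 45.22 CPM). The other A315T culture was not marked.

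The ratio of footprints to mRNA differed between the cell types for 3 members by the test of the difference itself (edgeR, adjusted p below 0.05). Over all genes, 5.94% were called higher in neurons and 2.13% lower, a split that turned with the scaling. Ptbp1 was lower in neurons by −1.44 on the log2 scale, Elavl1 by −0.53 and Rbfox2 by −0.50. Only the Ptbp1 call held in every fit. Without the low-count filter, Elavl1 and Rbfox2 were not called (edgeR, adjusted p = 0.422 and 0.471). Cycloheximide was given to MN1 cells alone before lysis, so its part cannot be told apart from that of the cell type.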

How the results depend on the processing

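The number of members called between cell types stayed at 9 in total mRNA, except 7 with GFP and WT alone, and between 8 and 10 in footprints. It was 6 in each fit for MN1 footprints against mRNA and 6 to 9 for neurons. For the difference of that ratio it was 3, but 5 with RLE scaling or DESeq2, 1 without the low-count filter, 1 without the hTDP-43 neuron cultures 2 and 3, and 1 to 3 when 1 culture was left out. Between genotypes it was 0 throughout, except in A315T against WT neuron total mRNA, where it was 0 to 1 when 1 culture was left out. Signs turned only for values that were not called. Nova1 in total mRNA between cell types was −0.10 to 0.22 with 1 culture left out. In the ratio difference, Elavl2 was −0.17 with RLE scaling and −0.18 with DESeq2 and went from −0.14 to 0.29 with 1 culture left out. Rbfox3, with too few MN1 reads for a ratio, was −0.94 with DESeq2 and went from −0.86 to 1.90 with 1 culture left out. Elavl4 in A315T against WT neurons went from −0.92 to 0.51. The cause was not tested. In the replicate block, the calls of Elavl4 and Nova1 between cell types in footprints (0.25 and 0.63) and of Elavl1 in the ratio difference (−0.51) changed and no other did. Of 820 values of single members under alternatives, 732 kept sign and call. Over all genes, calls between cell types in total mRNA also fell with GFP and WT alone, from 10369 of 12801 genes to 6471 of 12105. The ratio difference called 997 of 12358 genes, against 604 with RLE scaling, 657 with DESeq2 and 754 of 30334 without the low-count filter. Over the 20 comparisons between genotypes 0 to 1 genes were called, against 1 to 209 without the low-count filter, 0 to 283 with the replicate block and 0 to 1573 with 1 culture left out. Which factor limits the comparisons between genotypes was not tested.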
